A study of Rattus norvegicus with 28 samples.

Results

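The lumbar dorsal horn (LDH) of the rat spinal cord was compared between adult males injected with carrageenan as pups and uninjected controls, using every dorsal horn array of the series. These were 9 of the 28 arrays, chosen by their label: 5 of the left dorsal horn, on the side of the injected paw, and 4 of the right. On postnatal day 3 the injected males had received 1 µl per g of body weight of 0.25% carrageenan, a seaweed polysaccharide that inflames tissue, dissolved in 0.9% saline, in the sole of the left hindpaw. Weaning was at 21 days of age and the animals were kept to 59 days. The control males had no injection at all. Each array carried RNA of an injected animal, labelled with Alexa 647, and RNA of a control from the same side, labelled with Alexa 546. It held 228 features (oligonucleotide probes), and the deposited ratios of those measured were taken as log2. The base is inferred and not stated, and the fold changes below rest on it. A ratio above 0 is read as more signal in the injected animal. The deposited table does not state this direction, which is likely because channel 1 always held the injected RNA. The dyes were never swapped and no saline-injected group of this region is among the samples, so effects of carrageenan, of the injection itself and of the dyes cannot be told apart in what follows. The labels do not say that the arrays of a side came from separate animals, nor whether left and right arrays came from the same animals. The p-values below thus reflect only how much these arrays differed among themselves, possibly for technical reasons, and are too small if an animal gave both sides. Brain stem arrays set beside these further on came from animals given carrageenan or, in other groups, saline on postnatal day 3. For the saline groups no saline concentration or volume is recorded here.

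The dorsal horn is the first relay of pain and touch in the central nervous system. Sensory fibres release glutamate and substance P there, acting on AMPA, kainate and NMDA receptors and on tachykinin receptors. Local neurons that release GABA, glycine or opioid peptides, and noradrenaline and serotonin fibres from the brain stem, restrain or modulate that relay. The array held features for most of these systems.

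An exact 0 in the table was taken as not measured, and only part of the array was measured in this tissue. Of the 2052 dorsal horn values 739 were other than 0. The left arrays measured 100, 168, 85, 104 and 65 features, in order of array number. The right arrays measured 7, 65, 45 and 100, so the first right array contributed to very few means. Of the 228 features, 39 were measured on no dorsal horn array, 76 on 1 or 2, 40 on 3 or 4 and 73 on 5 or more. A feature was tested when it was measured on at least 5 of the 9 arrays with at least 2 on each side, which left 59 features. Of these, 50 carried a gene name, covering 45 genes. The arrays agreed weakly: among the 28 pairs of dorsal horn arrays that shared at least 15 measured features, r across features ranged from 0.0243 to 0.563. The array held 0 features for glial, microglial, vascular or motor neuron markers, and a ratio carries no level, so the labelled tissue could not be checked against its markers.

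**Figure D1:**
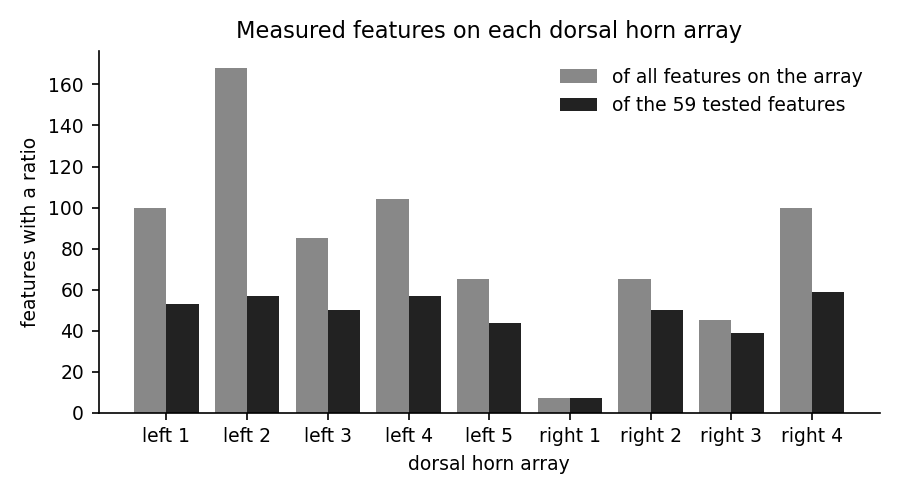
Number of features with a ratio on each dorsal horn array (vertical axis), out of all 228 features (grey) and out of the 59 tested ones (black), for left arrays 1 to 5 and right arrays 1 to 4. The first right array measured 7 features, and the second left array measured most, 168.

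The first question was which ratios departed from 0 over both sides together. The ratios furthest below 0 relative to their spread were those of Grik3 feature 88, Gria2 feature 83 and Gabbr1 feature 76. Grik3 is a kainate, Gria2 an AMPA and Gabbr1 a GABA-B receptor subunit, and the means ran from -3.15 to -1.13. The mu opioid receptor Oprm1 and feature 171 of the NMDA receptor subunit Grin2d also averaged below 0. The GABA-A receptor subunit Gabrq, the cholecystokinin receptor Cckbr and the neurotrophin Ntf3 averaged above 0. None of these passed the test. With limma and Benjamini-Hochberg adjustment, 0 of 59 features (0%) had an adjusted p below 0.05, and the smallest adjusted p was 0.132, shared by Grik3, Gria2 and Gabbr1. Before adjustment 10 features had p below 0.05, of which 7 (11.9% of those tested) averaged below 0 and 3 (5.08%) above 0; 2.95 are expected by chance. An exact two-sided sign-flip permutation test of each feature passed 0 after adjustment and had 12 with an unadjusted p below 0.05. The smallest p it can give is 0.00391 on 9 arrays and 0.0625 on 5. After adjustment over 59 features it could pass any only if several were at or near their smallest possible p. Its count of 0 thus adds little to that of limma. Over all tested features 19 means lay below 0 and 40 above, with a median of 0.09.

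Most means leaned on single arrays. Leaving out the array that moved it most turned the sign of the mean in 11 of the 59 features and moved it by over 1.5 times with the same sign in 36. The other 12 included Gria2, Gabbr1 feature 76, Gabrq, Oprm1, Cckbr, Grin2d and Ntf3. Few features had the same sign on every array. Below 0 on every array that measured them were 5 features (8.47% of the 59): Grik3 features 88 and 89, Gria2 feature 83, Gabbr1 feature 76 and the unnamed feature 181. Above 0 on every such array was 1 feature (1.69%), the substance P precursor Tac1 on feature 79. Feature 181 averaged -0.75 ± 0.72 (SD, n = 7), or -0.49 without right array 2, and the unnamed feature 144 averaged -0.26 ± 0.27 (n = 8).

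**Figure D2:**
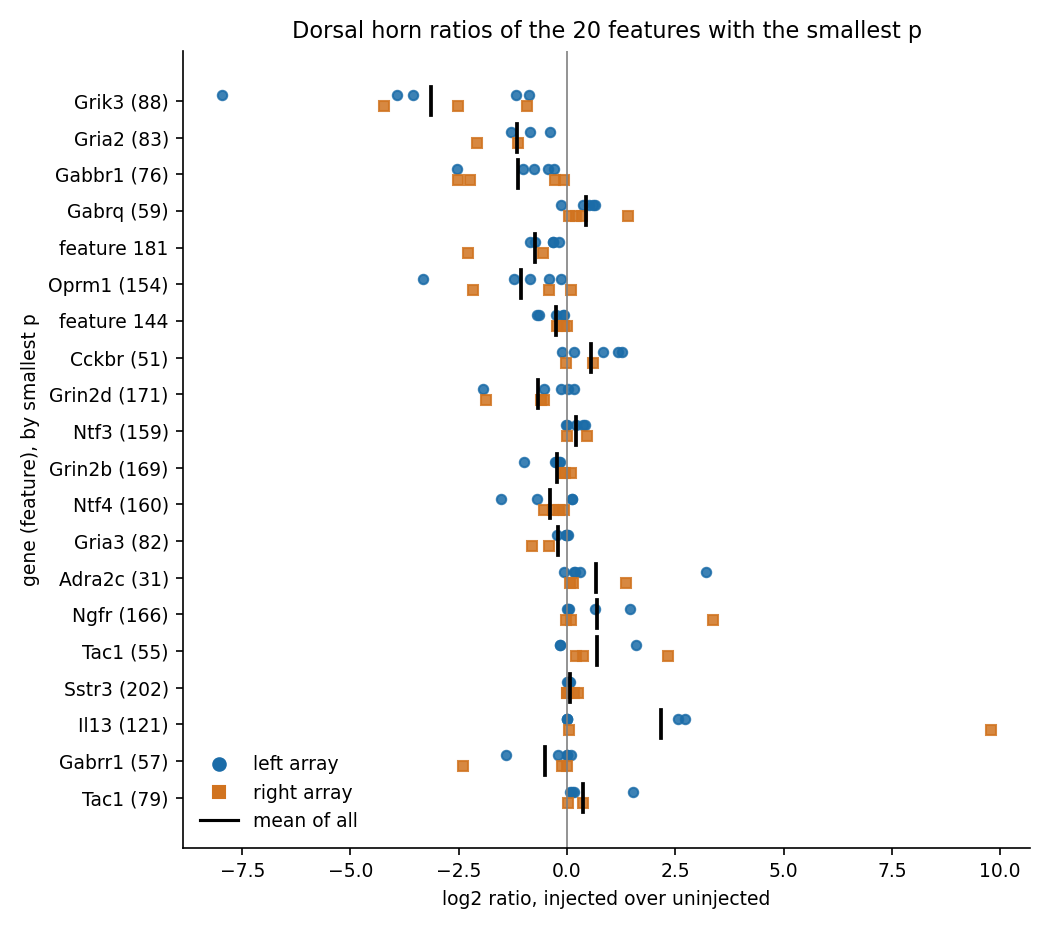
Log2 ratios (horizontal axis, injected over uninjected) of the 20 features with the smallest p (vertical axis, gene with feature number), 1 point for each array that measured the feature: blue circles left, orange squares right, black bar the mean of all. Grik3 (88), Gria2 (83) and Gabbr1 (76) have all points below 0, while Il13 (121) owes its mean of 2.16 to 3 of 7 arrays.

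Of all tested features, Grik3 feature 88 had the mean furthest from 0. Grik3, a kainate receptor subunit that modulates transmitter release and excitability, had ratios on feature 88 of -7.97, -1.18, -3.55, -3.93 and -0.88 on left arrays 1 to 5. On right arrays 2 to 4 they were -0.94, -4.22 and -2.52, and right array 1 did not measure it. The ratio was below 0 on 8 of 8 arrays, both sides overlapped, and left array 1 was the lowest. The mean was -3.15 ± 2.37 (SD, n = 8; 95% interval -4.97 to -1.33), or 8.87-fold lower, with an adjusted p of 0.132 by limma. The exact sign-flip p was 0.00781 before adjustment, the smallest possible on 8 arrays, and 0.154 after it. Without left array 1 the mean was -2.46. The second Grik3 feature, 89, was below 0 on 5 of 5 arrays at -1.71 ± 2.71 (n = 5), of which left array 1 gave -6.55 and the others -0.68 to -0.12, with a mean of -0.50 without that array.

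Gria2, the subunit that makes AMPA receptors impermeable to calcium, was measured on 5 arrays by feature 83. The ratios were -0.86, -1.29 and -0.40 on left arrays 1, 2 and 4 and -1.13 and -2.08 on right arrays 2 and 4. All 5 lay below 0, with the lowest on the right. The mean was -1.15 ± 0.62 (SD, n = 5; 95% interval -1.80 to -0.50; adjusted p = 0.132 by limma), or 2.22-fold lower. The other Gria2 feature, 81, was measured on left array 2 only, at 0.17, and was not tested. Gria3, another AMPA receptor subunit, averaged -0.21 ± 0.31 (n = 7). Its 5 left arrays lay between -0.23 and 0.02 and its 2 right arrays at -0.82 and -0.41, and the mean was -0.11 without right array 2. Of the 5 tested AMPA and kainate features 4 averaged below 0 (median -1.15) and 0 passed; the other was Gria4, at 0.08 ± 0.93 (n = 7). Gria4 was 2.04 on right array 3 and between -0.72 and 0.24 on the other 6 arrays, and averaged -0.25 without that array.

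NMDA receptors are glutamate-gated channels that magnesium blocks until the membrane is depolarised. Grin2d, a subunit found early in development and in interneurons, had ratios on feature 171 of -1.94, -0.53, -0.15, 0.03 and 0.15 on the left and -0.53, -0.59 and -1.86 on right arrays 2 to 4. The right arrays were all below 0 and the left ones lay on both sides of it. The mean was -0.68 ± 0.80 (SD, n = 8; 95% interval -1.30 to -0.06; adjusted p = 0.235 by limma). Grin2d feature 167, annotated with the same sequence record, was measured on 4 left arrays only and was not tested. It lay between -0.125 and 0.264 there, with a mean of 0.009. Grin2b, another NMDA receptor subunit, averaged -0.24 ± 0.32 (n = 8) and was below 0 on 7 of 8 arrays. Its left array 1 stood at -0.99 and the other 7 between -0.28 and 0.09, with a mean of -0.13. Both tested NMDA features averaged below 0 (median -0.46). The only metabotropic glutamate receptor tested, Grm3, averaged -0.42 ± 0.78 (n = 6), with 3 arrays below 0 and 3 above, and -0.12 without right array 3 at -1.89. Set against this, 32.2% of all tested means were below 0.

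Among GABA receptors, feature 76 of Gabbr1 and the Gabrq feature lay on opposite sides of 0. Gabbr1 is the subunit of the metabotropic GABA-B receptor that binds GABA. Its feature 76 was measured on every dorsal horn array, at -2.54, -1.02, -0.31, -0.44 and -0.77 on the left and -0.07, -0.27, -2.52 and -2.23 on the right. It was below 0 on 9 of 9 arrays, with the lowest ratios spread over both sides. The mean was -1.13 ± 1.02 (SD, n = 9; 95% interval -1.86 to -0.40), or 2.19-fold lower, with an adjusted p of 0.132 by limma. The exact sign-flip p was 0.00391 before adjustment, the smallest possible, and 0.154 after it. Feature 76 passed by limma when only the 5 features measured on all 9 arrays were tested (adjusted p = 0.0272) and when all 28 arrays shared 1 fit (0.0139).

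The array held 8 Gabbr1 features, and their values differed. Features 34, 35, 36, 37 and 38 are annotated with the same sequence record as feature 76. Feature 36 averaged 0.005 ± 0.096 (SD, n = 6; 95% interval -0.13 to 0.14). Features 38, 220, 35 and 37 were measured on 3 or 4 arrays and not tested. Feature 220 was 4.46 on left array 1 and -0.95 to -0.47 on its other 3 arrays, so its mean of 0.64 became -0.64 without left array 1. Feature 38 averaged 0.25, or 0.07 without right array 4, and feature 35 averaged 0.36, or 0.92 without left array 2. Feature 37 averaged 1.37 and was above 0 on each of its 3 arrays. Feature 75 was measured on 1 array at -0.16 and feature 34 on none.

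Gabrq encodes the theta subunit of the GABA-A chloride channel. Its ratios were 0.64, 0.37, 0.51, -0.14 and 0.60 on the left and 1.41, 0.21, 0.05 and 0.34 on the right, above 0 on 8 of 9 arrays, with right array 1 the highest. The mean was 0.44 ± 0.44 (SD, n = 9; 95% interval 0.12 to 0.76; adjusted p = 0.185 by limma), or 1.36-fold higher, and it passed only among the 5 features measured on all 9 arrays (adjusted p = 0.0272). Gabrr1, a subunit of the GABA-rho channel, averaged -0.50 ± 0.90 (n = 8), with -1.40 on left array 1, -2.39 on right array 2 and the other 6 arrays between -0.22 and 0.08, and -0.24 without right array 2. Of the 4 tested GABA-A and GABA-rho features 3 averaged above 0 (median 0.19) and 0 passed. Of those 3, Gabra5 averaged -0.06 and Gabre feature 74 averaged 0.01 without left array 1. The GABA transporter Slc6a13, the only tested feature for GABA synthesis and amino acid transport, averaged 0.07 ± 0.15 (n = 6), or 0.01 without right array 4.

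**Figure D3:**
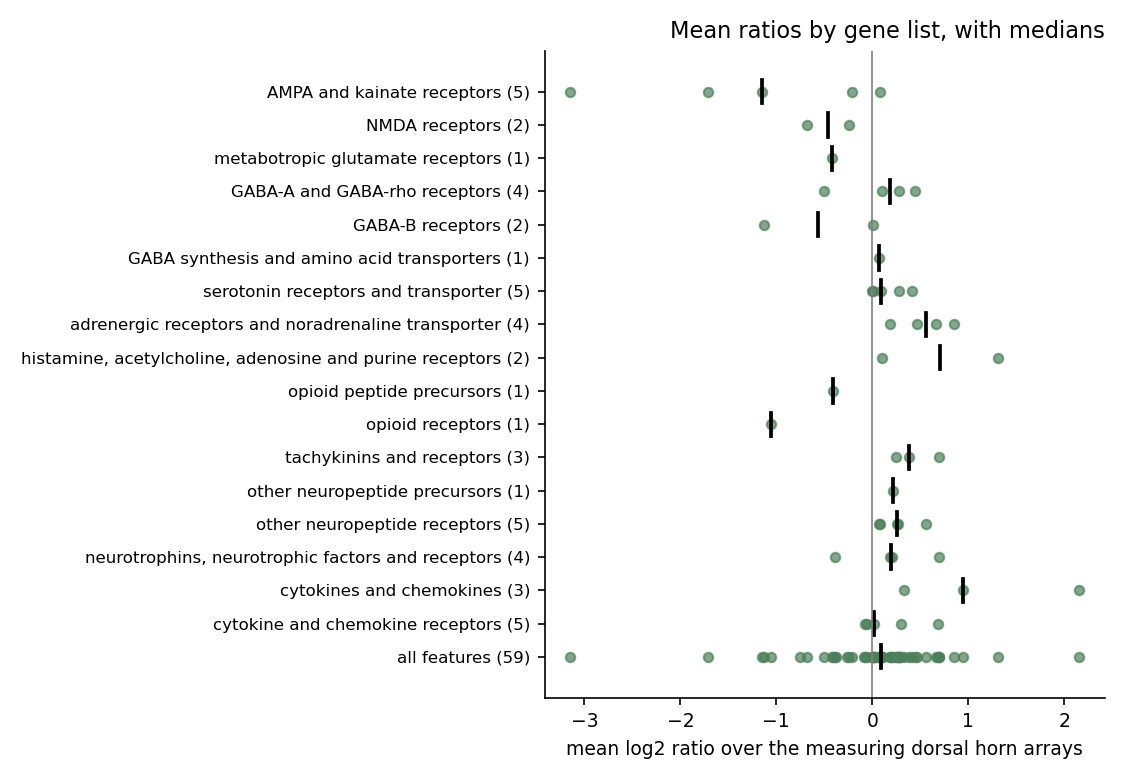
Mean log2 ratio of each tested feature (points, horizontal axis) by gene list (vertical axis, with the number of tested features), and the median of each list (black bars). The AMPA and kainate list has the lowest median, -1.15, and all 4 adrenergic features lie above 0; 0 features passed the test in any list.

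The opioid system was read mostly through its mu receptor, Oprm1, on which morphine and the endogenous opioid peptides act. Its ratios were -1.23, -0.41, -0.14, -0.86 and -3.32 on the left and -2.17, -0.41 and 0.09 on right arrays 2 to 4. They were below 0 on 7 of 8 arrays, and left array 5 and right array 2 were lowest. The mean was -1.06 ± 1.16 (SD, n = 8; 95% interval -1.95 to -0.16; adjusted p = 0.207 by limma), or 2.08-fold lower. The delta receptor Oprd1 was measured on 3 arrays, at -2.35 and -2.21 on left arrays 1 and 4 and 3.04 on right array 2, and was not tested. The kappa receptor Oprk1 (0.29 and 0.44) and the nociceptin receptor Oprl1 (0.81 and 0.19 on feature 187, -2.13 and -0.17 on feature 188) were measured on 2 arrays each.

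Of the opioid peptide precursors, 1 of 7 features was tested. Penk, which gives rise to the enkephalins, averaged -0.41 ± 0.76 on feature 194 (SD, n = 7; 95% interval -1.05 to 0.22), with the left arrays on both sides of 0, and -0.23 without left array 1. Its feature 196 was near or below 0 on the left (-0.70 to 0.13) and 2.87 on right array 4, and feature 197 was measured once, at -2.47. Pdyn, the dynorphin precursor, was measured on the left only, at -0.43, 3.04, 1.00, 0.44 and 0.61, so above 0 on 4 of 5 arrays. Pomc, the beta-endorphin precursor, averaged 0.02 ± 0.07 on feature 191 (n = 5), -0.51 ± 0.67 on feature 192 (n = 5) and 0.93 ± 0.80 on feature 198 (n = 3). These untested features covered too few arrays of the right side for a comparison of both sides.

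Tachykinins carry pain signals from sensory fibres, with Tac1 encoding substance P and neurokinin A. On feature 79, Tac1 was 0.16, 1.52, 0.08 and 0.12 on left arrays 1 to 4 and 0.37 and 0.02 on right arrays 3 and 4. It was above 0 on 6 of 6 arrays and left array 2 stood apart, which left a mean of 0.38 ± 0.57 (SD, n = 6; 95% interval -0.16 to 0.91), or 0.15 without that array. Feature 55, annotated with the same sequence record, averaged 0.69 ± 1.03 (n = 6) with 1.60 on left array 1, 2.33 on right array 3 and the other 4 arrays between -0.17 and 0.36, and 0.36 without right array 3. The neurokinin A receptor Tacr2 averaged 0.25 ± 0.46 (n = 7), led by 1.23 on left array 1, and 0.08 without it. The receptor Tacr3 was above 0 on 6 of 6 arrays but had only 1 on the right and was not tested; left array 1 gave 5.47 and the other 5 arrays 0.01 to 0.42. All 3 tested tachykinin features averaged above 0 (median 0.38) and 0 passed. Over all 59 tested features 67.8% of the means were above 0. That share is the background for this count, for the GABA-A and GABA-rho count before it and for the counts above 0 that follow. Of the remaining Tac1 features, 28 was measured once, at 1.77, and 217 on none.

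Other neuropeptide receptors were also above 0 on average, in 5 of 5 tested features (median 0.26), and 0 passed. Cckbr, a receptor for cholecystokinin, which counteracts opioid analgesia, had ratios of 1.27, 1.19, -0.11, 0.83 and 0.16 on the left and -0.02 and 0.59 on right arrays 2 and 4. Its mean was 0.56 ± 0.57 (SD, n = 7; 95% interval 0.08 to 1.04; adjusted p = 0.207 by limma), or 1.47-fold higher, with both sides overlapping. Sstr3, a somatostatin receptor, averaged 0.07 ± 0.09 over all 9 arrays, or 0.04 without right array 3. Vipr2, a receptor for vasoactive intestinal peptide, averaged 0.27 ± 1.46 (n = 8), or -0.18 without left array 2. The only other peptide precursor tested, somatostatin (Sst), averaged 0.22 ± 0.38 (n = 8), or 0.09 without left array 1 at 1.08.

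The receptors of descending noradrenaline fibres averaged above 0 in 4 of 4 tested adrenergic features (median 0.56), but 0 passed and the values rested on few arrays. Adra2c, an alpha-2 receptor, averaged 0.66 ± 1.12 (SD, n = 8), with 3.20 on left array 1, 1.36 on right array 3 and the other 6 arrays between -0.08 and 0.29. Without left array 1 its mean was 0.30. Adra2a, the alpha-2 receptor through which spinal clonidine relieves pain, averaged 0.19 ± 0.28 on feature 32 (n = 5) and 0.46 ± 0.95 on feature 33 (n = 5). These became 0.07 without right array 4 and 0.07 without left array 2. Adrb3, a beta receptor, averaged 0.85 ± 1.98 (n = 7), with 5.32 on left array 1 and the other 6 arrays between -0.07 and 0.44, and 0.11 without left array 1. On Adra2a feature 33 the 3 left arrays were above 0 and the 2 right arrays below it. Adra2a feature 27 was measured on left array 2 only, at -0.26, and was not tested. Of the tested serotonin receptor features 4 of 5 averaged above 0, with a median of 0.10, and 0 passed. Htr4 averaged 0.27 ± 0.56 (n = 7), with 1.48 on left array 1 and a mean of 0.07 without it. Htr1d averaged 0.10 ± 0.19 (n = 8), or 0.05 without right array 3. The 2 tested histamine and adenosine receptor features also averaged above 0. Hrh3 feature 95 averaged 0.10 ± 0.26 (n = 8), or 0.17 without left array 2, and Adora2a feature 24 averaged 1.31 ± 2.42 (n = 6). Adora2a feature 24 was 5.59 on left array 5 and below 0 on 2 of 6 arrays, and averaged 0.45 without left array 5. Of the untested features of these genes, Adora2a feature 23 averaged -0.18 ± 0.58 (n = 6), or 0.03 without left array 2. Hrh3 feature 9 was 1.03 and -1.32 on left arrays 1 and 2 and 3.68 on right array 4.

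Neurotrophins maintain sensory neurons and adjust their sensitivity. Ntf3, which supports sensory neurons of muscle and touch, was 0.37, 0.42, -0.01, 0.01 and 0.21 on the left and 0.46 and 0.001 on right arrays 2 and 4. Its mean was 0.21 ± 0.21 (SD, n = 7; 95% interval 0.01 to 0.41; adjusted p = 0.236 by limma), or 1.16-fold higher, and 3 of its 7 ratios were within 0.02 of 0. Ntf4, a ligand of the receptor TrkB, averaged -0.39 ± 0.54 (n = 8) and was below 0 on 6 of 8 arrays, all 4 right arrays among them. Left array 4 was lowest at -1.52, and the mean without it was -0.23. The low-affinity receptor Ngfr averaged 0.70 ± 1.19 (n = 8), of which left array 1 gave 1.46, right array 3 gave 3.36 and the median array 0.07, and averaged 0.32 without right array 3. Of the 4 tested neurotrophin features 3 averaged above 0 (median 0.20) and 0 passed. Ntrk3, among those 3, averaged 0.19 ± 0.45 (n = 5), or 0.03 without left array 2.

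The cytokine list had the highest median of any list, 0.95, and wide spreads. Il13, a cytokine of allergic inflammation, averaged 2.16 ± 3.59 (SD, n = 7; 95% interval -0.83 to 5.15), from 2.73 and 2.56 on left arrays 1 and 4, 9.79 on right array 2 and 4 arrays between -0.01 and 0.04. Without right array 2 its mean was 0.89. Il10, an anti-inflammatory cytokine, averaged 0.95 ± 1.96 (n = 6), with 4.82 on left array 1. The left arrays averaged 2.00 and the right arrays -0.11, and the mean without left array 1 was 0.17. Il1b, a cytokine that promotes inflammation, averaged 0.34 ± 1.08 (n = 6), or -0.06 without left array 4 at 2.33. All 3 tested cytokine features averaged above 0, as did 3 of the 5 cytokine receptor features (median 0.01), and 0 passed. Il5ra averaged 0.69 ± 1.52 (n = 6), of which left array 1 gave 3.77 and the other 5 arrays -0.08 to 0.24, with a mean of 0.07. Il11ra1 averaged 0.30 ± 0.93 (n = 7), with 2.24 on left array 1, and -0.02 without it. The array held 0 features for glycine receptors and 0 for dopamine receptors.

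Whether both sides shared the ratios was examined next, since the paw had been injected on the left only. Of the 59 tested features 41 had left and right means of the same sign, 15 below 0 and 26 above. In 13 the left mean was above 0 and the right below, and in 5 the reverse. Grik3 feature 88 averaged -3.50 ± 2.85 on the left (SD, n = 5) and -2.56 ± 1.64 on the right (n = 3), a left minus right difference of -0.94 (95% interval -4.98 to 3.10). Gabbr1 feature 76 averaged -1.01 ± 0.90 (n = 5) and -1.27 ± 1.28 (n = 4), a difference of 0.26 (95% interval -1.32 to 1.83). Gabrq averaged 0.40 ± 0.32 and 0.50 ± 0.62, a difference of -0.11 (95% interval -0.80 to 0.59). The intervals were wide, so differences between sides as large as the means themselves were not excluded.

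Left and right were then tested against each other. By limma 0 of 59 features had an adjusted p below 0.05 and 1 (1.69%) had an unadjusted p below 0.05. That feature was Gria3, near 0 on the left (-0.05 ± 0.10, SD, n = 5) and lower on the right (-0.61 ± 0.29, n = 2), a difference of 0.56 (95% interval 0.20 to 0.93; adjusted p = 0.571). Tested alone, the left arrays passed 0 features and the right arrays passed 0, with 7 and 0 at an unadjusted p below 0.05.

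**Figure D4:**
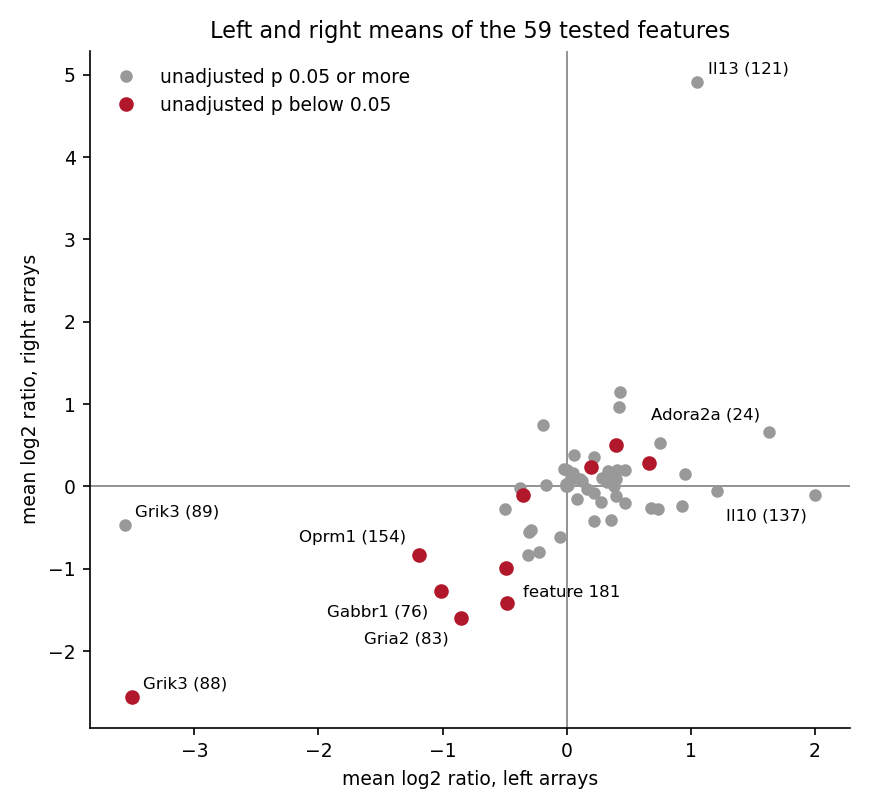
Mean log2 ratio over the left arrays (horizontal axis) and over the right arrays (vertical axis) for each of the 59 tested features, red where the pooled test had an unadjusted p below 0.05. Grik3 (88), Gabbr1 (76), Gria2 (83), Oprm1 (154) and feature 181 lie below 0 on both axes, and Il13 (121) has the highest right mean, 4.92, against 1.05 on the left.

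The dorsal horn ratios were last set beside those of the periaqueductal grey of the midbrain (PAG) and the rostral ventromedial medulla (RVM), the brain stem regions that control the dorsal horn from above, after the same injection. The dyes were assigned the same way in all of them, and whether regions shared animals is not stated in the labels. Grik3 feature 88 averaged -4.99 ± 3.23 in PAG after carrageenan (SD, n = 5) and -4.06 ± 1.14 in RVM (n = 3), against -3.15 in the dorsal horn. It was also below 0 after saline, at -2.11 ± 2.20 in PAG (n = 5) and -2.57 ± 0.92 in RVM (n = 4), on every array that measured it. Gabbr1 feature 76 averaged -1.58 ± 0.83 in PAG (n = 5) and -0.26 ± 0.30 in RVM (n = 4) after carrageenan, and 0.14 ± 0.90 (n = 5) and -1.08 ± 0.50 (n = 4) after saline. Gria2 feature 83 averaged -0.52 ± 1.45 in PAG (n = 5) and -1.63 ± 0.58 in RVM (n = 3) after carrageenan, and -0.60 ± 0.81 (n = 2) and -1.05 ± 1.56 (n = 3) after saline. Ratios below 0 for Grik3 were thus present in both other regions and with saline as well as carrageenan.

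In a fit of all 19 carrageenan arrays, 0 of 59 features differed between dorsal horn and PAG at an adjusted p below 0.05 by limma, and 5 (8.47%) had an unadjusted p below 0.05. Slc6a13 had the smallest p, at 0.07 ± 0.15 in the dorsal horn (SD, n = 6) against 1.21 ± 0.72 in PAG (n = 4), a difference of -1.14 (95% interval -1.77 to -0.51; adjusted p = 0.132). It was called without the third PAG array, at -1.45 (adjusted p = 0.00385 by limma). The other 4 were Adra2a feature 32 (-2.29), the GABA-A receptor subunit Gabre (-0.75) and the unnamed feature 50 (-0.46), all lower in the dorsal horn, and Gabbr1 feature 36, higher by 0.36. Between dorsal horn and RVM 0 of 42 features passed by limma, and 1 (2.38%) had an unadjusted p below 0.05, feature 144, at -0.26 ± 0.27 (n = 8) against 0.29 ± 0.64 (n = 5). Grin2d feature 171 averaged 0.04 ± 0.10 in PAG (n = 5) and 0.14 ± 0.93 in RVM (n = 3), above its dorsal horn mean of -0.68, with differences of -0.72 (95% interval -1.54 to 0.10) and -0.82 (95% interval -1.80 to 0.15) that did not pass.

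**Figure D5:**
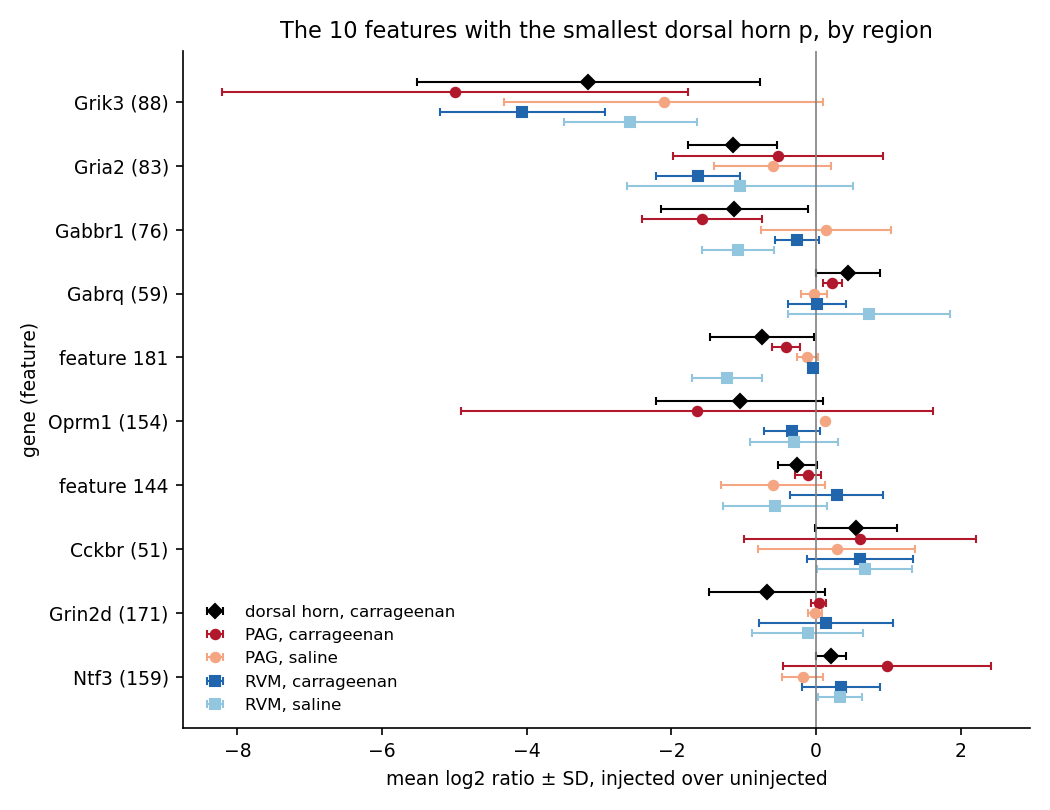
Mean log2 ratio with SD (horizontal axis) of the 10 features with the smallest dorsal horn p (vertical axis) in dorsal horn, PAG and RVM, after carrageenan or saline; a point without a bar had 1 array. Grik3 (88) lies below 0 in all 5 groups, whereas Gabbr1 (76) lies between -1.58 and 0.14.

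Of the 14 features measured on 5 or more arrays but on fewer than 2 of a side, all had at most 1 right array and none was tested. Beside the opioid and tachykinin features above they included, given here after their values were seen, the metabotropic glutamate receptor Grm4, below 0 on 5 of 5 arrays from -2.90 to -0.02, and the NMDA receptor subunit Grin3b, below 0 on 5 of 6 arrays at -0.53 ± 0.43 (SD, n = 6). Gabre feature 60 averaged 0.90 ± 0.95 (n = 6), whereas the tested Gabre feature 74 averaged 0.10 ± 0.29 (n = 7).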

How the data were processed

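RNA isolated with TRIzol (5 µg per sample) was turned into cDNA, hybridised to custom arrays and made visible with 3DNA dendrimer dyes, per the labels' protocols. Scanning, background correction, filters and normalization are not given in the sources used here. The deposited table gives 1 log2 ratio per feature and array; base 2 was inferred from the range of the values, and centring and direction are unstated. No value was changed. Dorsal horn array medians ran from -0.061 to 0.0605.

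Features were named from the platform annotation: of 228, 202 had 1 symbol and 26 none, 191 were updated through a RefSeq gene table (GRCr8) and 11 kept the annotation's name.

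The mean ratio was tested against 0 with limma (version 3.58.1, R 4.3.3; lmFit, eBayes, two-sided, no covariates, 95% intervals), adjusted over all tested features at 0.05. The code was checked on simulated ratios that were independent and normally distributed. Those had no arrays that stood apart and no link between left and right, so the check does not cover either. Other regions needed at least 3 measured arrays. The gene lists and the rule for named genes (the 20 smallest p, opioid and tachykinin features, 2 per list, and other tested features of those genes) were chosen with earlier results of these data known. Values of some untested features of named genes are given beside that rule. Alternatives changed the treatment of zeros, centring or quantile normalization, the minimum of arrays, array weights, a replicate block, the sides, the arrays left out and the test. The mean without the array that moved it most was added after seeing the data.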

Additional observations from a re-analysis of the deposited data

Results flagged for a closer look

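Among the named features, 1 array stood apart from the others of its side in 8 of 31 groups of values examined, by a test that marks about 1 group in 20 by chance. Left array 1 was that array in 6 of them. It gave -0.986 for Grin2b (feature 169; the other left arrays -0.283 to -0.169), -1.40 for Gabrr1 (-0.219 to 0.083) and 3.20 for Adra2c (-0.081 to 0.291). It also gave 1.23 for Tacr2 (-0.133 to 0.262), 1.48 for Htr4 (-0.068 to 0.304) and 3.77 for Il5ra (-0.082 to 0.132). Left array 2 gave -0.23 for Gria3 (-0.02 to 0.019) and 1.52 for Tac1 feature 79 (0.078 to 0.164). The ratios of left array 1 had an SD of 2.04 over its 100 measured features, against 0.65 to 1.49 on the other left arrays. Right array 2 had a wider SD still, 2.36 over 65 measured features, so left array 1 was not the only array with wide ratios. The cause was not tested.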

How the results depend on the processing

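The count of 0 features against uninjected controls held in 23 of 25 alternatives. The sign-flip test was among these, although it could hardly pass a feature with so few arrays. It was 2 (Gabbr1 feature 76 and Gabrq) over the 5 features measured on all 9 arrays, which needs less adjustment. It was 3 (Gabbr1 feature 76, Grik3 feature 88 and feature 181) with all 28 arrays in 1 fit, which pools the spread of other regions. That fit also weighted left and right differently, which moved the mean of feature 181 from -0.75 to -0.90 and that of Grik3 feature 88 from -3.15 to -3.08. Left minus right and dorsal horn minus RVM stayed at 0 in each alternative run. Dorsal horn minus PAG gave 10 with exact zeros kept as 0, of which Slc6a13 was among the features tested otherwise, and 0 to 1 when single arrays were left out (1 without the third PAG array). With the replicate number as a random block 0 passed and 5 instead of 10 had an unadjusted p below 0.05; with both arrays of a number averaged first 0 passed (smallest adjusted p 0.0514). No label supports that pairing. Deviations of same-numbered arrays from their side's mean had r of -0.78 for number 1, over only 7 features, and -0.27 to -0.04 for the other numbers. Left and right arrays of different numbers that shared at least 15 features had r from -0.31 to 0.40, a range that includes -0.27 to -0.04. The block fit estimated a correlation of 0.48 within numbers. Leaving out single arrays gave 4 to 10 features at an unadjusted p below 0.05, with 4 without right array 2 (38 tested) or right array 4 (29 tested). Leaving out right arrays 1 and 3, with under 50 features each (chosen after seeing the data), gave 0 in every comparison.

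Of 689 recomputed means of the 31 named features 10 changed sign and 5 became called. These counts are no measure of stability, because some alternatives cannot move a mean. A feature that fell below the minimum of arrays was also not recomputed, as Il13 without right array 2, where its mean was 0.89. Without the array that moved it most, the mean changed sign in 11 of the 59 tested features. On the right arrays alone Il10 was -0.108, Il11ra1 -0.277 and Adra2a feature 33 -0.239. Leaving out single arrays moved Il11ra1 between -0.0218 and 0.470. Gabbr1 feature 36, near 0 throughout, was -8.3e-05 with median centring, -0.00078 with the block, -0.005 with numbers averaged, -0.007 on the left alone and -0.0136 to 0.0368 with single arrays left out. The number of arrays and unmeasured values limit precision: the median 95% interval reached 0.536 to either side.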

Other observations

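The features named here were chosen after their values were seen. Gabra3, a GABA-A receptor subunit, was measured on 3 dorsal horn arrays and was below 0 on each, at -2.49 on left array 1, -4.46 on right array 2 and -3.57 on right array 4. The lowest dorsal horn ratio, -13.2, belonged to the metabotropic glutamate receptor Grm2 on right array 2, where 3 left arrays gave 0.05, -2.03 and -1.60. At the other end, feature 11 of the serotonin receptor Htr2a stayed between -0.001 and 0.009 on 6 arrays and Htr5a between -0.037 and 0.011 on 7. The other Htr2a feature, 12, was not tested and was below 0 on each of its 4 arrays, from -3.15 to -0.21. The interleukin receptor Il10ra stayed between -0.029 and 0.046 on 7 arrays. The spread between arrays thus differed widely between features.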
